A study of Mus musculus with 24 samples.

Results

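Genes whose RNA peaked on day 3 of wild-type (WT) mouse embryonic stem cell differentiation were taken from a table of FPKM values (fragments per kilobase of a gene's exons, scaled for each library). A member is a gene with the biotype protein_coding whose mean WT day 3 level was at least 5 FPKM and at least 2 times its mean at WT day 0, at WT day 6 and at WT day 9. Fgf5, Pou3f1, Dnmt3a, Dnmt3b, Dnmt3l, Tet1, Pim2, Lef1 and genes whose names start with Hist or Rp were set aside, and 4 of these (Dnmt3b, Pim2, Pou3f1 and Dnmt3a) also met the thresholds. The rule left 118 members of 53465 genes in the table, of which 22040 were protein_coding and 5789 of those had a WT day 3 mean of at least 5 FPKM. The WT values chose the members, so they are given below as a description, and tests are given for the Atf3 knockout (KO) libraries, which the rule did not use. Same-numbered WT and KO day 3 libraries deviated together, as given below, so the KO libraries are not fully separate from that choice.

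The study sequenced poly(A)+ RNA from 24 libraries, 3 each of WT and Atf3 KO cells at days 0, 3, 6 and 9. Per the labels' protocols, both genotypes were grown as stem cells in serum with leukaemia inhibitory factor and the inhibitors CHIR99021 (of GSK3) and PD0325901 (of MEK). The differentiation medium, the edited part of Atf3 and the number of KO clones are in none of the sources at hand. Nothing says that a group's 3 libraries are separate cultures, so p-values reflect only how these libraries vary, and that variation may be technical. Values of a group are given in the order of replicates 1, 2 and 3. At KO day 0 the order is replicate 1, replicate 2 and an unnumbered library, whose column matched the group but no single sample label. Replicate numbers follow the sample titles, which differ from the column numbers at KO day 0. There the column of replicate 2 is numbered 3, and that of the unnumbered library is numbered 2.

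When mouse stem cells leave medium with GSK3 and MEK inhibitors, they shut down the naive pluripotency network and pass through a short formative state, in which ERK signalling resumes, before germ layers form. A gene that peaks between the naive state and the germ layers can mark that passing state, or can respond to the culture itself, as genes of oxygen, nutrient and oxidative stress sensing do. ATF3, a bZIP factor of the ATF/CREB family, is induced in many cells by stress.

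Atf3 itself was 5.03, 15.8 and 10.5 FPKM at WT day 3 and 0.248, 0.447 and 0.611 FPKM at KO day 3. It was between 0.134 and 0.714 FPKM in every KO library except KO day 6 replicate 3, at 4.17 FPKM. Library depth, recovered from the FPKM steps, was 7855614 to 25274389 reads, of which 4.42% to 45.6% fell on ribosomal-RNA-type genes. At day 3 that share was 15.3%, 33% and 35.2% in WT and 15.4%, 25% and 27.9% in KO. Of a list of 20 naive pluripotency genes, 17 fell and 0 rose from KO day 0 to KO day 3, and of 41 tested formative and primed epiblast genes, 22 rose and 7 fell. Neither list holds a member, but the rule set aside Fgf5, Pou3f1, Dnmt3a, Dnmt3b, Dnmt3l, Pim2 and Lef1 of the second list by name. Of these, Dnmt3b, Pim2, Pou3f1 and Dnmt3a met the thresholds. In the second list 6 genes (Pou3f1, Dnmt3b, Sox3, Wnt8a, Pim2 and Enpp3) were higher at KO day 3 than on each other KO day. Summed levels of 14 primitive streak and mesoderm markers were 10.3 to 16.9 FPKM at WT day 3 and 7.69 to 15.9 FPKM at KO day 3, against 201 to 379 FPKM at WT day 6. Summed levels of 13 neural ectoderm markers, 1 of which (Dll1) is a member, were 47.8 to 60.9 FPKM at KO day 3 and 73.4 to 78.6 FPKM at KO day 0.

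The WT day 3 means of the 118 members ran from 5.05 to 303 FPKM with a median of 12.0 FPKM. The ratio of the day 3 mean to the next highest WT day had a median of 2.72 and reached 41.6, with 72 members between 2 and 3, 25 between 3 and 5, 14 between 5 and 10, and 7 at 10 or more. The next highest WT day was day 0 for 48 members, day 6 for 35 and day 9 for 35. In 93 members the lowest WT day 3 library lay above all 9 other WT libraries. That count comes from the libraries that chose the members, so nothing is read from it. Just inside the fold condition were Slc16a3 at a ratio of 2.004, Trp53inp1 at 2.006 and a predicted gene, and just outside it were Rev1 at 1.993, Fgfr1op at 1.987 and Utp14a at 1.970. Just inside the level condition were Qser1 at 5.05 FPKM, Shroom2 at 5.09 FPKM and Abcg1 at 5.17 FPKM, and just outside it Spire1 at 4.97 FPKM, Kcnj4 at 4.97 FPKM and Klf7 at 4.95 FPKM.

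**Figure D1:**
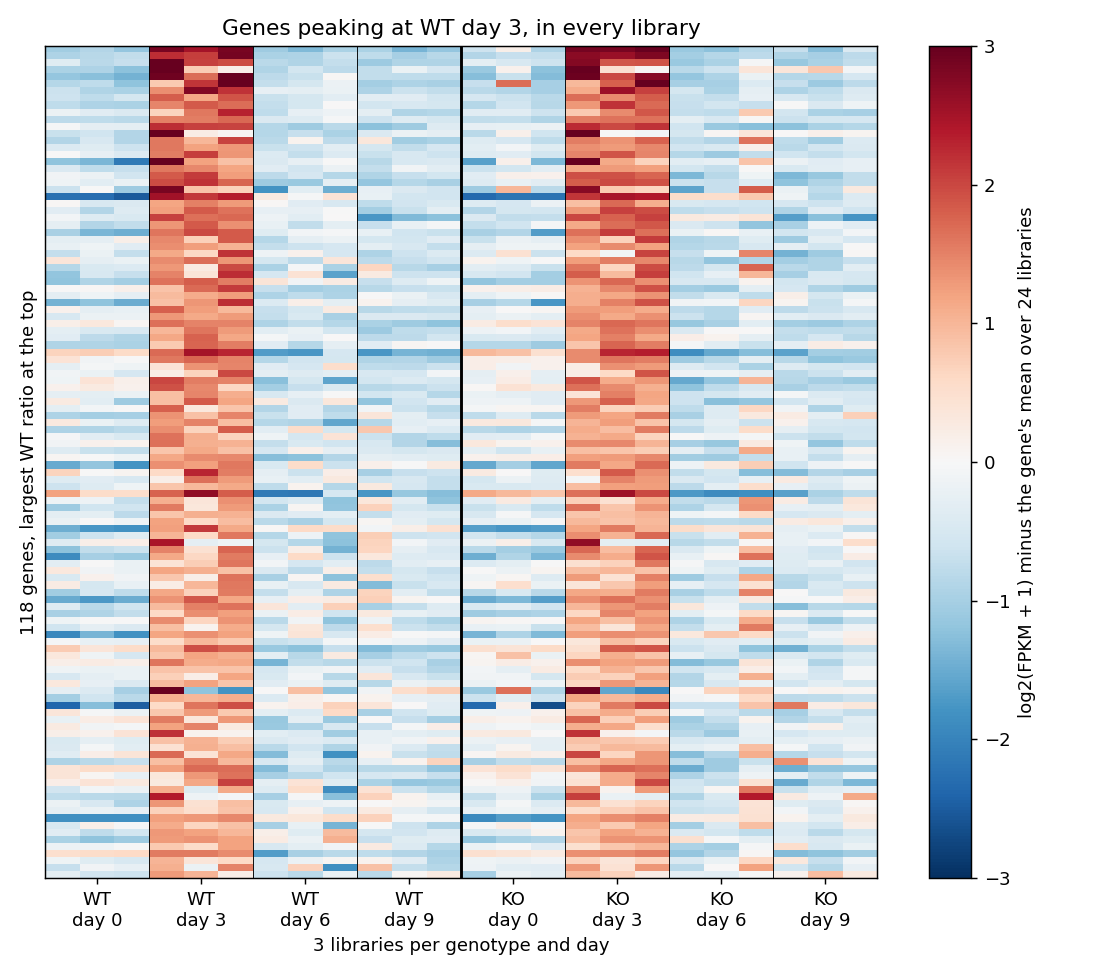
Levels of the 118 genes (rows, ordered by the WT ratio of day 3 to the next highest day) in 24 libraries (columns, 3 per genotype and day), coloured by log2(FPKM + 1) minus the gene's mean. The WT day 3 columns are high because they chose the genes, the KO day 3 columns are high in the same rows, and the third KO day 6 column (replicate 3) is redder than its neighbours in many rows.

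The peak was also present in the KO libraries. The KO day 3 mean was the highest of the 4 KO days in 117 of 118 members, with Pfkfb3 as the exception, against 22.5% of protein_coding genes with a KO day 3 mean of at least 5 FPKM. Without KO day 3 replicate 1 it was the highest in 111 members. Same-numbered WT and KO day 3 libraries deviated together (correlation 0.60 to 0.66), and how far the KO counts rest on this was not tested. In limma's fit to log2(FPKM + 1) over 15159 genes, 101 members (85.6%) were higher at KO day 3 than at KO day 0 at an adjusted p under 0.05, beside 11.9% of all genes tested higher and 16.2% lower. Against KO day 6 the count was 100 members (84.7%), beside 14.9% of all genes, and against KO day 9 it was 104 (88.1%), beside 17.3%. The shares of all genes lower at KO day 3 were 17.7% against day 6 and 21.6% against day 9. No member was lower at KO day 3 in any of the 3 contrasts. The median log2 fold change over the members was 1.38 against day 0, 1.55 against day 6 and 1.65 against day 9, while that over all genes tested was -0.01, -0.02 and 0.02. All 118 members passed the filter on low values, which asked for 1 FPKM in at least 3 libraries.

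A total of 92 members (78.0%) were higher at KO day 3 in all 3 contrasts, beside 3.28% of all genes tested. A further 12 were higher in 2 contrasts, 5 in 1 and 9 in none. In 79 members the lowest KO day 3 library lay above all 9 other KO libraries, beside 4.79% of all genes tested. With TPM in place of FPKM the count for all 3 contrasts fell to 45, and 40 of these also kept their calls without any 1 library. TPM here sets equal sums over all genes, the ribosomal-RNA-type genes included. With sums set equal without those genes the count was 88. Under TPM the median of all genes moved to 0.10, -0.26 and -0.59 against days 0, 6 and 9, and the members' medians above it were 1.46, 1.59 and 1.75. The share of all genes called higher and lower against KO day 9 was then 4.04% and 31.6%, against 17.3% and 21.6% in FPKM.

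Run on KO means, the same rule gave 111 genes, of which 88 were members, which is 74.6% of the members and 79.3% of the KO list. Of protein_coding genes with a KO day 3 mean of at least 5 FPKM, 1.98% met the 2-fold condition. The 30 members that missed the rule in KO, by its 5 FPKM level or its 2-fold condition, had KO ratios of 0.901 to 2.41 with a median of 1.71. Of these 30, 18 had KO day 6 as their next highest day. Without KO day 6 replicate 3, 101 members met the rule in KO. Each of the 23 genes that met the rule in KO alone had its highest WT mean at day 3 as well, with WT ratios of 1.06 to 5.96. Among them were Sox3, a neural and pluripotency SOX factor, with day 3 means of 6.83 FPKM in WT and 6.11 FPKM in KO, and Mt1, a metallothionein, with 84.6 and 86.9 FPKM.

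**Figure D2:**
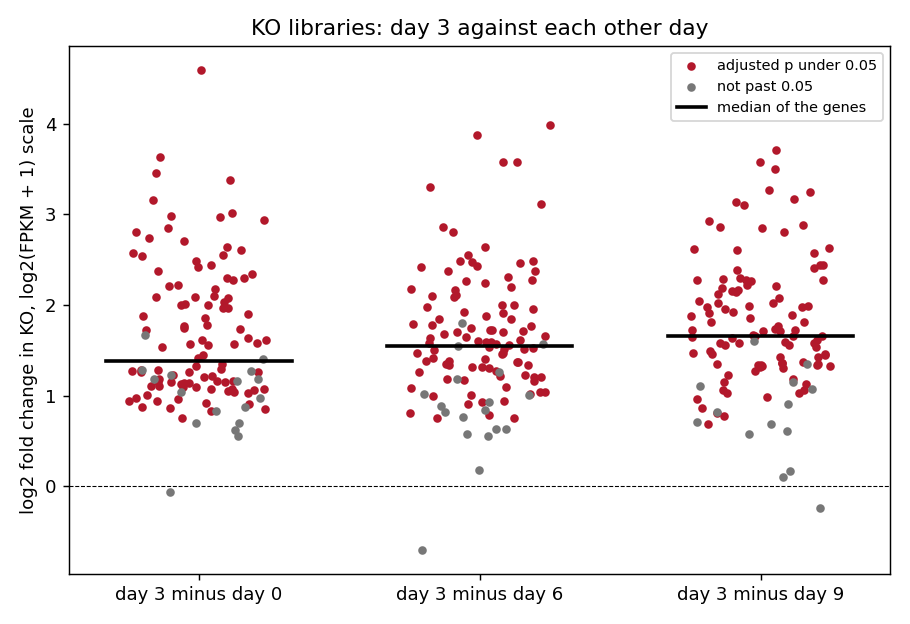
Log2 fold change of each of the 118 genes between KO day 3 and each other KO day (points, on the log2(FPKM + 1) scale), with genes past an adjusted p of 0.05 in red, the others in grey and the median as a bar. The medians are 1.38, 1.55 and 1.65, and 1 gene, Ier3, lies below 0 in each contrast.

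The members were grouped by role after their names and values had been seen, and 86 of them fell into at least 1 of 14 groups. For a group, the number called in all 3 KO contrasts is given out of its members, with no test of the group.

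The 12 largest WT ratios were led by a forkhead factor and a lipid enzyme. Foxi3 (chr6:70956531-70961066, plus strand, mm10), a forkhead transcription factor known from ectodermal placodes, was 20.2, 15.6 and 20.2 FPKM at WT day 3 and at most 0.612 FPKM in every other WT library. In KO it was 20.7, 20.4 and 22.7 FPKM at day 3 and 0.912, 0.555 and 2.32 FPKM at day 0. The KO day 3 libraries all lay above the other KO libraries, and the log2 fold changes were 3.37 ± 0.24 (SE, n = 3 against 3) against day 0, 3.99 ± 0.24 against day 6 and 3.71 ± 0.24 against day 9, with adjusted p of 1.5e-09, 2.2e-10 and 3.1e-10. Enpp2 (chr15:54838901-54952892, minus strand, mm10), which encodes autotaxin, the enzyme that makes lysophosphatidic acid, was 10.1, 9.07 and 16.4 FPKM at WT day 3 and 14.4, 13.2 and 15.5 FPKM at KO day 3. Its levels in the other 18 libraries were 0.176 to 0.516 FPKM, and its KO log2 fold changes were 3.46, 3.58 and 3.58, each ± 0.17. Both genes were thus low before and after day 3 in both genotypes.

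Neuronal genes formed the largest of these groups, with 12 members, and all 12 were higher in KO at day 3 in all 3 contrasts. Kif1a (chr1:93015464-93101951, minus strand, mm10), a kinesin that carries synaptic vesicle precursors along axons, was 46.9, 35.3 and 41.5 FPKM at WT day 3 and 35.7, 44.8 and 42.9 FPKM at KO day 3. It was 0.643, 0.770 and 0.806 FPKM at KO day 0, 11.1, 10.8 and 13.3 FPKM at KO day 6 and 6.57, 3.59 and 5.25 FPKM at KO day 9. Its rise from KO day 0, 4.59 ± 0.18 on the log2 scale (adjusted p 7.3e-13), was the largest of any member, and its later levels stayed above those of day 0 without overlap. Syp, which encodes the synaptic vesicle protein synaptophysin, was 5.54, 5.90 and 5.93 FPKM at KO day 3 and 0.205 to 1.29 FPKM in the other 9 KO libraries. Its exons overlap those of Gm14703 on the opposite strand, and the strand used for counting is not stated.

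The neuronal intermediate filament genes differed in where they started. Ina, alpha-internexin, was 14.3, 26.9 and 28.1 FPKM at KO day 3, 10.3, 7.03 and 9.58 FPKM at KO day 0 and 0.570 to 1.81 FPKM on later KO days. Its log2 fold change was 1.23 ± 0.30 against day 0 and 3.58 ± 0.30 against day 6. Prph, peripherin, was 25.9, 22 and 26.6 FPKM at KO day 3, 3.03 to 3.97 FPKM at KO day 0 and 7 to 7.77 FPKM at KO day 6. Prph thus had no overlap between day 3 and any other KO day, and its log2 fold changes were 2.57, 1.63 and 3.50, each ± 0.18. The other 8 members of the group were the synaptic genes Syt11, Syngr3, Stx3, Nptxr and Cacng7, the axon guidance mediator Crmp1, the actin regulator Cyfip2 and the matrix link protein gene Hapln4. In 11 of the 12 the calls held without any 1 library, with Crmp1 as the exception, and 6 held all 3 calls with TPM. Of the 18 tested genes on a list of neuronal and axon transport genes, 4 are members and 8 rose and 3 fell from KO day 0 to day 3.

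All 7 members of the epithelial and cell surface group were higher in KO at day 3 in all 3 contrasts. Epcam, an epithelial adhesion protein, was 85.2, 96.6 and 85.5 FPKM at WT day 3 and 88.2, 97.9 and 95.0 FPKM at KO day 3. It was 13.4, 14.2 and 19.0 FPKM at KO day 0, 46.0, 64.6 and 55.7 FPKM at KO day 6 and 23.0, 33.9 and 40.8 FPKM at KO day 9. The groups did not overlap, and the log2 fold change was 2.54 ± 0.22 against day 0 but 0.76 ± 0.22 against day 6 (adjusted p 0.013), a call that ended without KO day 6 replicate 1. Esrp1, the epithelial splicing regulator, went from 0.185 to 0.39 FPKM at KO day 0 to 9.11, 10.6 and 11.5 FPKM at KO day 3 and 4.22 to 5.07 FPKM at KO day 6. Epha1, an ephrin receptor, was 27.5, 37.8 and 27.4 FPKM at KO day 3 and 1.87 to 8.34 FPKM in the other KO libraries, and it held its calls in every setting tried. Gja1, which encodes the gap junction protein connexin 43, was 33.4, 44.9 and 59.2 FPKM at KO day 3 and at most 24.1 FPKM elsewhere in KO. Thy1, Shroom2 and Fat1 make up the rest. In this group 4 members kept all calls without any 1 library and 2 with TPM.

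Of the Notch ligands, Dll1 and Jag2 were members, and both were called in all 3 contrasts. Dll1 was 3.53, 10.5 and 22.8 FPKM at WT day 3 and 4.1, 8.13 and 23.9 FPKM at KO day 3, so replicate 3 was highest and replicate 1 lowest in both genotypes. At KO day 0 it was 0.609 and 0.320 FPKM in replicates 1 and 2 but 7.32 FPKM in the unnumbered library, which overlapped day 3. The log2 fold change against day 0 was 2.01 ± 0.60 (adjusted p 0.015), a call that ended without KO day 0 replicate 1, KO day 0 replicate 2 or KO day 3 replicate 3. Jag2 was 8.51, 8.31 and 7.5 FPKM at KO day 3 and 1.17 to 3.08 FPKM in the other KO libraries, and it kept its calls in every setting tried.

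The germ line group held 4 members, each called in all 3 contrasts, without any 1 library and with TPM. Cpeb1, an RNA-binding protein that controls translation in oocytes, was 5.80, 4.72 and 6.53 FPKM at KO day 3 and at most 0.805 FPKM in the other KO libraries. Ybx2, a germ cell RNA-binding protein, was 9.21, 14 and 16 FPKM at KO day 3 and 1.05 to 3.55 FPKM elsewhere in KO. Sycp3, of the meiotic synaptonemal complex, was 5.75, 3.10 and 10.01 FPKM at KO day 3 and at most 1.26 FPKM elsewhere in KO, and replicate 2 was lowest in WT too. Tcfl5, a basic helix-loop-helix factor of the testis, was 17.0, 16.6 and 14.8 FPKM at KO day 3 and at most 4.23 FPKM elsewhere in KO. In none of the 4 did day 3 overlap another KO day.

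The members include 6 genes of the circadian clock's negative limb. In the textbook loop, CLOCK and BMAL1 bind the E-box CACGTG and induce Per, Cry, Nr1d1, Ciart and the Bhlhe40 and Bhlhe41 repressors, which then hold them back. The RefSeq table (build GRCm38.p6) gave windows of 250 bases before to 50 after a start for 89 of 118 members. CACGTG, which reads the same on both strands, stood in a window of 4 of the 5 clock members with one: Per1, Cry1, Ciart and Bhlhe41, and not Nr1d1. The stretches are shown because they let the E-boxes (in capitals) be seen beside the levels, and that of Fnip1, a nutrient sensing member, is added. Each line is 120 bases, 5′ to 3′ on the gene's strand.
Per1: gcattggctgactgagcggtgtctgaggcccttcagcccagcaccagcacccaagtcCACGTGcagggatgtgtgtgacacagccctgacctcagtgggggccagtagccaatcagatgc
Cry1: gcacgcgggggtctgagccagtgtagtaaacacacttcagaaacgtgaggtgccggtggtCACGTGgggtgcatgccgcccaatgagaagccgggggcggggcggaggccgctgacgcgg
Ciart: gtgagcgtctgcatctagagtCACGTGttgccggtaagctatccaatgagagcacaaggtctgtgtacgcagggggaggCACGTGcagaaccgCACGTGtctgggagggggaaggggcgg
Bhlhe41: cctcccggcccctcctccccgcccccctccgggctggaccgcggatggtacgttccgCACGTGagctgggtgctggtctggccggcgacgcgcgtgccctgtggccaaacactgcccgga
Fnip1: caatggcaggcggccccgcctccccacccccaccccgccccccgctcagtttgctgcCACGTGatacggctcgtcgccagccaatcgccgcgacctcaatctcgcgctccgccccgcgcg

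The stretches lie at chr11:69098726-69098845 (plus strand) for Per1, chr10:85185055-85185174 (minus strand) for Cry1, chr3:95882246-95882365 (minus strand) for Ciart, chr6:145865511-145865630 (minus strand) for Bhlhe41 and chr11:54438047-54438166 (plus strand) for Fnip1. Ciart has 3 E-boxes, whose first bases are 116, 58 and 44 bases before the start. Over all members with a window, 20 of 89 (22.5%) held CACGTG, against 14% of 4478 other expressed protein_coding genes with a window and 7.15% of all 32851 windows in the table. The palindromic ATF/CREB site TGACGTCA stood in windows of 3 of 89 members (Cds1, Flcn and Tmem59l), or 3.37%, against 4.04% of the other expressed genes. The AP-1 site TGACTCA, searched on both strands, stood in 2 (Gja1 and Tmem54), or 2.25%, against 3.71%. These matches describe letters in these windows and carry no test.

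Of the 6 clock members, 3 were called in all 3 KO contrasts. Bhlhe41 was 22.8, 11.2 and 19.6 FPKM at KO day 3 and at most 1.70 FPKM elsewhere in KO, with log2 fold changes of 3.63, 3.31 and 3.27, each ± 0.32. Cry1 was 21.0, 18.3 and 19.4 FPKM at KO day 3, 7.86, 8.16 and 8.77 FPKM at KO day 0 and 2.40 to 9.98 FPKM later. Ciart was 6.57, 8.98 and 13.0 FPKM at KO day 3, 3.03 to 3.33 FPKM at KO day 0 and 0.695 to 2.02 FPKM later. For these 3 genes day 3 did not overlap any other KO day, but the calls of Cry1 against days 0 and 9 ended with TPM. The call against day 0 also ended with a replicate block across days, a setting that leaves out the unnumbered KO day 0 library. The exons of Bhlhe41 overlap those of Gm43909 on the opposite strand.

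The other 3 clock members overlapped between days. Per1 was 13.6, 17.5 and 16 FPKM at WT day 3 and 11.7, 16.4 and 13.8 FPKM at KO day 3, while KO day 0 held 7.43 and 6.09 FPKM in the numbered libraries and 14 FPKM in the unnumbered one. Its log2 fold change was 0.62 ± 0.28 against day 0 (adjusted p 0.099), 1.37 ± 0.28 against day 6 and 1.3 ± 0.28 against day 9. Nr1d1, which encodes the nuclear receptor REV-ERB alpha, was 8.49, 12.0 and 16.6 FPKM at KO day 3 and 5.39 to 9.5 FPKM at KO day 0, and was called against days 6 and 9 alone. Its day 6 call ended without KO day 3 replicate 2 or 3 or KO day 6 replicate 1 or 2, and neither call held with TPM. Bhlhe40 was 105, 25.8 and 22.8 FPKM at WT day 3 and 96.9, 24.7 and 22.1 FPKM at KO day 3, so replicate 1 stood far above the others in both genotypes. It was not called in any KO contrast (adjusted p 0.11, 0.12 and 0.098). Of clock genes that are not members, Nr1d2 and Per3 were also higher at KO day 3 in all 3 contrasts, the latter by 0.72, 0.54 and 0.57 ± 0.15 against days 0, 6 and 9 on the log2 scale. Dbp was called against days 0 and 6 (adjusted p 0.0488 and 0.0234) but not against day 9 (0.195), and Cry2 against day 6 alone (0.041). Arntl, which encodes BMAL1, and Clock were not called in any, and Per2 and Npas2 did not pass the filter on low values. The WT and KO day 3 means were low, at 1.33 and 1.28 FPKM for Arntl and 0.615 and 0.655 FPKM for Clock.

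The 5 oxidative stress members were each called in all 3 KO contrasts. They act around NRF2, which induces antioxidant genes through sites that BACH1 can occupy as a repressor. In this group 3 members kept all calls without any 1 library and 1, Gstt2, with TPM. Hmox1, haem oxygenase 1, was 319, 232 and 225 FPKM at WT day 3 and 293, 172 and 198 FPKM at KO day 3. It was 66.1, 64.2 and 92.7 FPKM at KO day 0, and 26.4, 34.7 and 162 FPKM at KO day 6, where replicate 3 was far above the other 2 but still below day 3. The log2 fold changes were 1.54 ± 0.43, 2.00 ± 0.43 and 2.41 ± 0.43 against days 0, 6 and 9, and the first call ended without KO day 3 replicate 1, with a replicate block and, as did the other 2, with TPM. Sqstm1, which encodes the autophagy receptor p62, had the highest WT day 3 mean of all members, 303 ± 24.7 FPKM (SD, n = 3), and 291 ± 20.8 FPKM at KO day 3. Its KO day 3 libraries, at 272, 288 and 313 FPKM, all lay above KO day 6, at 140, 146 and 233 FPKM, with a log2 fold change of 0.78 ± 0.20 (adjusted p 0.0045) that was not past the threshold with TPM. Its exons overlap those of Mrnip on the opposite strand.

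Gclm, the modifier subunit of the enzyme that starts glutathione synthesis, was 22.2, 22.8 and 25.2 FPKM at KO day 3 and 9.78 to 11.5 FPKM at KO day 0. It was 2.62 to 8.20 FPKM on later KO days, so its later levels were below those of day 0 without overlap. The Gclm call against day 0 ended with TPM. Gstt2, a glutathione transferase, was 6.95, 8.98 and 10.6 FPKM at KO day 3 and kept its calls in every setting tried. Bach1 was 22.3, 21.0 and 29.4 FPKM at KO day 3 and 28.4 FPKM in KO day 6 replicate 3, against 4.32 and 5.16 FPKM in the other KO day 6 libraries. Its call against day 6 ended when any of 4 libraries was left out (KO day 3 replicates 1 and 3, KO day 6 replicates 1 and 2), and that against day 9 without KO day 3 replicate 3 or KO day 9 replicate 2. None of the 3 Bach1 calls held with TPM. Nqo1, another classical NRF2 target, is no member: it was 23.4, 14.4 and 16.1 FPKM at KO day 3 and fell by 0.66 ± 0.18 from KO day 0, but was higher at KO day 3 than at day 6 (2.30 ± 0.18) and day 9 (1.81 ± 0.18). Txnrd1, which encodes thioredoxin reductase and is no member either, was higher at KO day 3 in all 3 contrasts (0.57, 1.04 and 1.14 ± 0.21).

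The nutrient sensing group held 8 members, of which 5 were called in all 3 KO contrasts. Flcn, Fnip1 and Rragd belong to the folliculin and Rag GTPase branch that tells mTORC1 and the factors TFEB and TFE3 about amino acids. Rragd was 23.5, 16.5 and 25.3 FPKM at WT day 3 and 22.4, 20.9 and 27.2 FPKM at KO day 3, against 4.48 to 6.32 FPKM at KO day 0. Its log2 fold changes were 2.00, 1.71 and 1.13, each ± 0.30, and day 3 did not overlap any other KO day, though the calls against days 6 and 9 ended with TPM. Fnip1 was 7.47, 3.16 and 12.5 FPKM at WT day 3 and 9.42, 4.33 and 12.3 FPKM at KO day 3, and its KO day 6 replicate 3, at 10.5 FPKM, reached that range. It was called against days 0 and 9 and not against day 6 (adjusted p 0.086), and the day 0 call ended without KO day 0 replicate 2, KO day 3 replicate 1 or KO day 3 replicate 3. Flcn was 21.2, 36.2 and 46.4 FPKM at KO day 3 and 15.1 to 21.9 FPKM at KO day 0, so replicate 1 overlapped day 0, and that call (adjusted p 0.047) ended without any of 4 libraries, namely KO day 0 replicates 1 and 2 and KO day 3 replicates 2 and 3.

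Amino acid carriers and a GCN2 inhibitor belong to the same group. Slc7a7, a cationic amino acid exchanger subunit, was 17.1, 44.9 and 31.9 FPKM at KO day 3 and 8.99 to 14.3 FPKM at KO day 0, a call that ended without KO day 0 replicate 2 or KO day 3 replicate 2. Slc43a2, a neutral amino acid carrier, was 5.76, 6.25 and 5.54 FPKM at KO day 3 and at most 2.85 FPKM elsewhere in KO, and kept its calls in every setting tried. Impact, an imprinted gene whose product restrains the amino acid sensor GCN2, was 141, 69 and 169 FPKM at WT day 3 and 166, 94.8 and 169 FPKM at KO day 3. KO day 6 replicate 3 reached 95.2 FPKM, just above the lowest day 3 library, and the call against day 6 ended without KO day 3 replicate 1, KO day 3 replicate 3, KO day 6 replicate 1 or KO day 6 replicate 2. Ddit4 and Arrdc3, the last 2 of the group, are given with the low oxygen genes.

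None of the 5 low oxygen members was called in all 3 KO contrasts, and in 4 of them (Egln3, Adm, Pfkfb3 and Ddit4) day 3 replicate 1 stood far above the other 2 in both genotypes. Egln3 (chr12:54178981-54203860, minus strand, mm10), a prolyl hydroxylase that marks HIF for destruction and is itself a HIF target, was 79.2, 7.55 and 6.58 FPKM at WT day 3 and 58.6, 6.30 and 5.91 FPKM at KO day 3. KO day 9 held 6.31, 7.08 and 6.68 FPKM, so replicates 2 and 3 of KO day 3 were no higher than KO day 9. Its log2 fold changes were 1.40, 1.02 and 0.91, each ± 0.71 (adjusted p 0.15, 0.29 and 0.33), and without KO day 3 replicate 1 they were 0.38, -0.01 and -0.11. Adm, which encodes the vasodilator adrenomedullin, was 31.6, 3.16 and 1.79 FPKM at WT day 3 and 32.6, 2.46 and 1.58 FPKM at KO day 3. It was called against KO day 0 (2.18 ± 0.78, adjusted p 0.042) a call that ended without KO day 0 replicate 1, KO day 0 replicate 2 or KO day 3 replicate 1. Pfkfb3, a glycolytic regulator, was 21.4, 3.64 and 3.37 FPKM at KO day 3 and 1.87, 2.88 and 26.7 FPKM at KO day 6, and was not called in any contrast.

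Ddit4 (chr10:59949669-59951834, minus strand, mm10), which encodes the mTORC1 inhibitor REDD1, was 512, 114 and 90.1 FPKM at WT day 3 and 448, 109 and 77.3 FPKM at KO day 3. In KO its other libraries ran from 15.0 to 53.8 FPKM apart from KO day 6 replicate 3, at 88.2 FPKM, which lay above KO day 3 replicate 3. The log2 fold changes were 2.60 ± 0.60 against day 0 (adjusted p 0.0026), 1.57 ± 0.60 against day 6 (0.051) and 1.91 ± 0.60 against day 9 (0.016), and the last was 1.15 (adjusted p 0.13) without KO day 3 replicate 1. Slc16a3, the lactate exporter MCT4, was 62.0, 51.8 and 37.6 FPKM at KO day 3 and 35.2, 61.1 and 39.3 FPKM at KO day 9, which overlapped it. Its call against KO day 0 ended without KO day 0 replicate 1 or KO day 3 replicate 1. Arrdc3, an arrestin-family gene of nutrient response, was 27.1, 2.62 and 2.62 FPKM at KO day 3 and not called. Of genes of the response to low oxygen that are no members, Bnip3, Vegfa, Slc2a1 and Ldha were highest in day 3 replicate 1 of both genotypes. Hif1a was highest in replicate 3 and Car9 lowest in replicate 1 of both, and Epas1 was highest in replicate 1 of WT and lowest in that of KO. Ldha was 439, 428 and 271 FPKM at WT day 3, so replicates 1 and 2 were close. Car9 was 0.123 to 0.502 FPKM at day 3 over both genotypes and did not pass the filter on low values. Bnip3 was 65.9, 15.5 and 15.7 FPKM at WT day 3 and 20.9 to 25 FPKM at WT day 9. Vegfa was 13.8, 3.45 and 2.73 FPKM at WT day 3 and 12.4 to 16.8 FPKM at WT day 9.

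**Figure D3:**
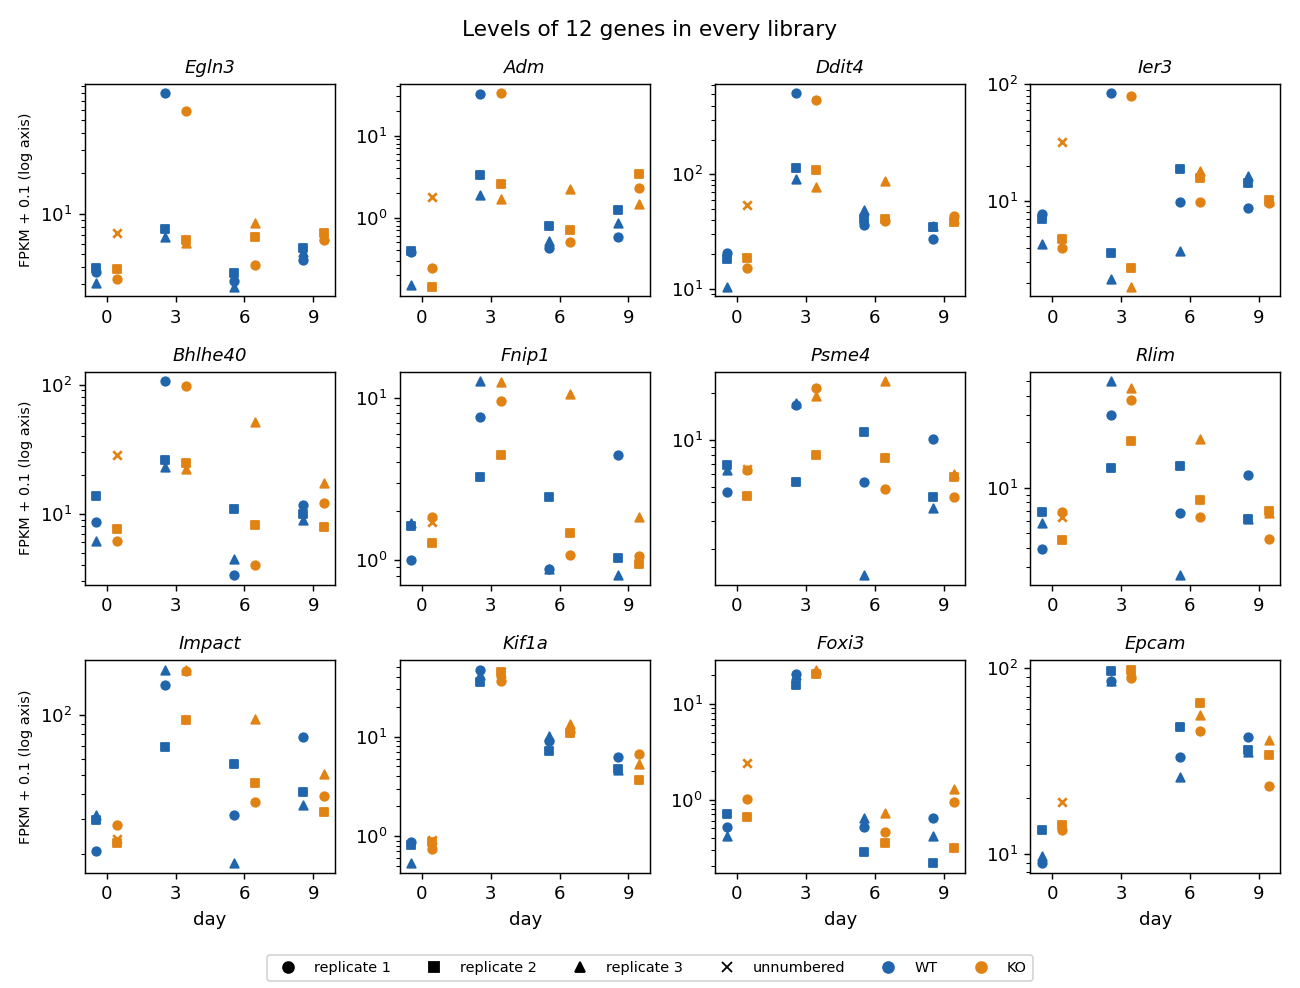
FPKM + 0.1 (log axis) of 12 genes in every library by day, with WT in blue, KO in orange and the marker giving the replicate number. In the top row and in Bhlhe40 replicate 1 is the highest day 3 library of both genotypes, in Fnip1, Psme4, Rlim and Impact replicate 2 is the lowest, and in Kif1a, Foxi3 and Epcam the 3 lie together.

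The replicates of day 3 differed in the same way in WT and KO. Same-numbered WT and KO day 3 libraries deviated together from their group means over all genes tested (correlation 0.60 to 0.66 per pair, against -0.40 to -0.16 for pairs with different numbers), as a description across genes. In 74 of 118 members the 3 replicates had the same order in both genotypes, as they did in 42.8% of all genes tested. Replicate 1 was at least 2 times both other libraries in both genotypes in 8 members (Pfkfb3, Bhlhe40, Adm, Ddit4, Slc16a6, Arrdc3, Egln3 and Ier3), and in 1.5% of all genes tested. Replicate 2 was at least 1.5 times lower than both others in both genotypes in 12 members, among them Rlim, Psme4, Fnip1, Nampt, Impact and Bhlhe41, and in 4.16% of all genes tested. Replicate 1 was at most 0.5 times both others in Cnksr3 and Abcg1, and in 1.27% of all genes tested. The day 3 peak of WT also rested on single libraries for some members: 72 of 118 met the rule whichever WT library was left out, and 99, 106 and 99 met it without WT day 3 replicate 1, 2 and 3. The share of ribosomal-RNA-type reads was lowest in replicate 1 of both genotypes, at 15.3% and 15.4%, and its part in these differences was not tested.

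Ras and kinase signalling held 11 members, of which 7 were called in all 3 KO contrasts. Rasd2, a small GTPase, was 20.6, 10.2 and 9.54 FPKM at WT day 3 and 17.4, 8.88 and 9.01 FPKM at KO day 3, against at most 1.66 FPKM elsewhere in KO. Plcg2, a phospholipase C that acts below receptor kinases, was 28.2, 31.4 and 29.8 FPKM at KO day 3 and 2.54 to 6.08 FPKM elsewhere in KO, with log2 fold changes of 2.21, 2.48 and 2.85, each ± 0.19. Mapkapk3, a kinase activated by p38 and ERK, was 18.4, 21.0 and 20.03 FPKM at KO day 3 and at most 7.31 FPKM elsewhere in KO. These 3 and Grb10, an imprinted adaptor that restrains insulin signalling, kept their calls in every setting tried. Dusp4, an ERK phosphatase induced by ERK, was 18.4, 38.1 and 47.7 FPKM at WT day 3 and 19.3, 36.9 and 49.7 FPKM at KO day 3. It rose from KO day 0 (3.02 ± 0.60, adjusted p 0.00069), where the numbered libraries held 1.53 and 1.04 FPKM and the unnumbered one 13.2 FPKM, and was not called against day 9, where replicate 1 held 37.2 FPKM. Its day 6 call (adjusted p 0.049) ended without KO day 3 replicate 2 or 3 or KO day 6 replicate 1 or 2.

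Ier3 (chr17:35821684-35822923, plus strand, mm10), an immediate early gene, was 83.8, 3.52 and 2.05 FPKM at WT day 3 and 79.4, 2.56 and 1.75 FPKM at KO day 3. In both genotypes replicates 2 and 3 were below the days 0, 6 and 9 libraries, all of which held at least 3.65 FPKM, and the KO log2 fold changes were -0.07, -0.70 and -0.24, each ± 1.11. It entered the rule through 1 WT library and does not meet it without WT day 3 replicate 1. Of 26 ERK and FGF signalling genes on a list, Dusp4 and Ier3 are members, and 6 rose and 7 fell from KO day 0 to day 3.

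Transcription and chromatin factors held 11 members, of which 9 were called in all 3 KO contrasts, Foxi3 and Tcfl5 among them. Bend3, a repressor of pericentromeric chromatin, was 9.85, 22.2 and 17.6 FPKM at KO day 3 and 3.56 to 7.13 FPKM outside day 3 over both genotypes. Raver2, an RNA-binding co-regulator of splicing, was 5.59, 6.60 and 5.53 FPKM at KO day 3 and at most 1.81 FPKM elsewhere in KO. Taf1d, of the RNA polymerase I machinery, was 8.88, 14.4 and 27.5 FPKM at KO day 3 and 7.76, 15.1 and 28.6 FPKM at WT day 3, so the replicate order was shared. Its day 0 call (adjusted p 0.03) ended without any 1 KO day 0 library or KO day 3 replicate 2 or 3, and its day 6 call without KO day 3 replicate 3. Skil, a SMAD co-repressor, was 14.9, 7.95 and 11.9 FPKM at KO day 3 but 12.0 FPKM in KO day 6 replicate 3, and its calls against days 6 and 9 ended without KO day 3 replicate 1 or 3, or replicate 1 or 2 of the other day.

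The 7 lipid members were each called in all 3 KO contrasts. In this group 4 members kept all calls without any 1 library and 3 with TPM. Beside Enpp2, Cds1, which makes CDP-diacylglycerol for phospholipid synthesis, was 6.56, 6.07 and 6.97 FPKM at KO day 3 and 0.662 to 2.26 FPKM elsewhere in KO. Elovl4, an elongase of very long chain fatty acids, was 12.0, 9.91 and 11.9 FPKM at KO day 3 and 1.75 to 4.20 FPKM elsewhere in KO. Pla2g12a, a secreted phospholipase, was 7.52, 7.06 and 6.84 FPKM at KO day 3 and 2.28 to 3.09 FPKM elsewhere in KO. In these genes day 3 did not overlap any other KO day. Acsl4, which activates arachidonic acid and is known for its role in ferroptosis, was 8.89, 6.33 and 13.6 FPKM at WT day 3 and 11.8, 9.07 and 15.1 FPKM at KO day 3, and KO day 6 replicate 3, at 9.11 FPKM, overlapped the lowest of these. Its day 6 call ended without KO day 3 replicate 3 or KO day 6 replicate 1 or 2. Abcg1, a sterol exporter, was 2.26, 6.14 and 5.76 FPKM at KO day 3, and its call against day 0 (0.88 ± 0.30, adjusted p 0.031) ended without KO day 0 replicate 1, replicate 2 or the unnumbered library and without KO day 3 replicate 2 or 3.

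Proteolysis, cell death and imprinted genes made up the rest of the groups. Of 6 ubiquitin and proteolysis members 5 were called in all 3 KO contrasts. Mmp25, a membrane metalloproteinase, was 3.85, 12.2 and 8.24 FPKM at KO day 3 and at most 0.868 FPKM elsewhere in KO. Usp44, a histone H2B deubiquitinase, was 6.74, 8.08 and 7.33 FPKM at KO day 3, 2.26 to 2.94 FPKM at KO day 0 and at most 1.22 FPKM later. Rlim, the ubiquitin ligase that starts X inactivation, was 29.6, 13.4 and 49.6 FPKM at WT day 3 and 37.4, 19.995 and 45.0 FPKM at KO day 3, and KO day 6 replicate 3, at 20.7 FPKM, overlapped it. Its day 6 call ended without KO day 3 replicate 1 or 3 or KO day 6 replicate 1 or 2. Psme4, a proteasome activator, was 21.2, 7.85 and 18.9 FPKM at KO day 3 and 23.4 FPKM in KO day 6 replicate 3, and was not called in any contrast.

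Of the 3 cell death members Bok alone was called in all 3 KO contrasts. Its calls against days 0 and 9 ended with TPM. The day 0 call also ended with the replicate block across days. It ended too without KO day 0 unnumbered, KO day 3 replicate 1 and KO day 6 replicate 3 together. Pmaip1, which encodes the p53-induced BH3 protein NOXA, was 13.7, 9.32 and 18.9 FPKM at WT day 3 and 17.1, 13.6 and 23.9 FPKM at KO day 3, the highest KO to WT ratio of means among the members at 1.3. It was called against days 0 and 9. The 3 imprinted members, Snrpn, Grb10 and Impact, were called in all 3 contrasts. Snrpn was 62.6, 88.4 and 74.2 FPKM at KO day 3 and 16 to 28.2 FPKM elsewhere in KO, but it shares exons on the same strand with the predicted member Gm38393, so reads of these 2 cannot be told apart with certainty. In all, 15 members share at least 10% of their exon length with another gene above 1 FPKM.

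The 32 members outside these groups include 4 predicted genes. Coro1a, an actin-binding coronin, was 16.7, 13.9 and 15.9 FPKM at KO day 3 and 0.588 to 2.33 FPKM elsewhere in KO. Kcnk1, a potassium channel, was 18.2, 22.3 and 18.2 FPKM at KO day 3, 1.34 to 1.88 FPKM at KO day 0 and 3.63 to 7.95 FPKM later. Pdzd4, a PDZ domain gene, was 36.8, 69.1 and 46.8 FPKM at KO day 3, 20.6 to 25.5 FPKM at KO day 0 and 2.25 to 6.10 FPKM later. These 3 differed in where they started, since Pdzd4 was already at 20.6 FPKM or more at KO day 0. The Pdzd4 call against day 0 (1.08 ± 0.36, adjusted p 0.031) ended without any 1 KO day 0 library or KO day 3 replicate 2 or 3, and its exons overlap Gm14817 on the opposite strand. Tmem54 went from 0.118 to 0.191 FPKM at KO day 0 to 7.48, 9.99 and 6.59 FPKM at KO day 3 and 3.86 to 4.53 FPKM at KO day 6, a call that ended without KO day 3 replicate 2. Fam131b and Psors1c2, both called in all 3 contrasts, were at most 1.18 and 1.5 FPKM in KO outside day 3. Nampt, a rate-limiting enzyme of NAD salvage, was called in 2, and its day 6 call ended without KO day 3 replicate 1 or KO day 6 replicate 1 or 2. H2-Q6, a class Ib histocompatibility gene, was 5.43, 7.30 and 5.47 FPKM at KO day 3, and its near-identical paralogs make its level uncertain.

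WT and KO levels at day 3 lay close together. The ratio of KO to WT day 3 means had a median of 0.98 over protein_coding genes with a WT day 3 mean of at least 5 FPKM. Over the members it ran from 0.758 to 1.3 with a median of 0.981. The lowest ratios were those of Egln3 at 0.758, Tmem54 at 0.795, Slc7a7 at 0.808 and Pfkfb3 at 0.818 besides 2 predicted genes, and the highest were those of Pmaip1 at 1.3, Acsl4 at 1.24, Psme4 at 1.24 and Enpp2 at 1.21. In limma's fit 0 members were called between genotypes on any day, beside 0.0132% of all genes lower and 0% higher in KO at day 3. The shares of all genes higher and lower in KO were 0.0066% and 0.0066% at day 0, 0.231% and 0.495% at day 6, and 0.468% and 0.495% at day 9. At an unadjusted p under 0.05, 2 members were higher and 0 lower at day 0, 0 differed at day 3, 6 were higher and 5 lower at day 6, and 1 was higher and 2 lower at day 9, beside 1.11%, 0.798%, 10% and 5.2% of all genes tested on those days in either direction. Voom on the recovered reads called 0 members too. Since the WT side of these contrasts chose the members, nothing is read from the counts.

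On day 6 the ratios of KO to WT means spread from 0.285 to 4.42. The highest were Pfkfb3 at 4.42, Bhlhe40 at 3.43 and Fnip1 at 3.30, in each of which KO day 6 replicate 3 stood far above the other 2 libraries. In that library 50 members (42.4%) were at least 2 times both other KO day 6 libraries, as were 15.3% of all genes tested, and the member median was 4.88 FPKM against 2.39 and 2.51 FPKM. The same library held the 4.17 FPKM of Atf3 and the lowest share of ribosomal-RNA-type reads of its group, 6.10% against 18.6% and 11.6%, and the part of either in these levels was not tested. The lowest day 6 ratios were those of Thy1 at 0.285, Ramp3 at 0.295 and Spock2 at 0.358. Without WT day 6 replicate 2, 4 members were called at day 6, beside 1.11% of all genes higher and 1.35% lower in KO: Spock2, Thy1 and Ramp3 lower and Epcam higher, named after their values were seen. The WT day 6 values in that fit chose the members, so nothing is read from these calls either.

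**Figure D4:**
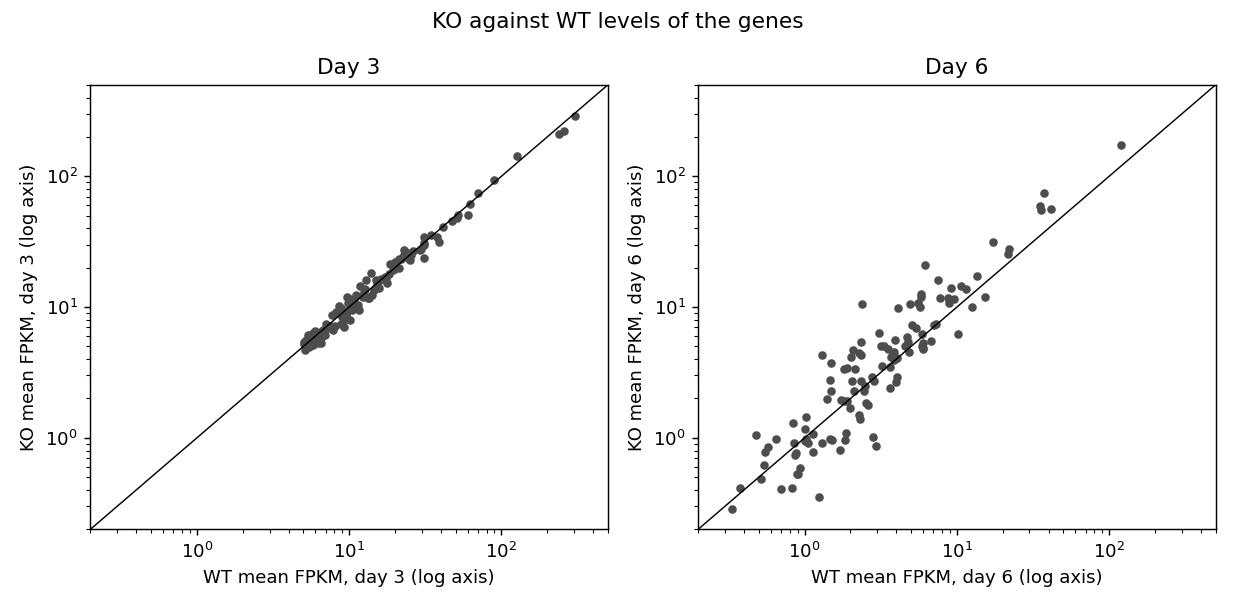
Mean FPKM in KO against mean FPKM in WT of the 118 genes (1 point each, log axes, 3 libraries per mean) at day 3 (left) and day 6 (right), with the line of equal levels. The day 3 ratios lie between 0.758 and 1.3 and the day 6 ratios between 0.285 and 4.42.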

How the data were processed

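Poly(A)+ RNA was read in 24 libraries. The submitters' processing notes name build mm10, the aligner HISAT2 2.2.1, the counter featureCounts 2.0.1, the trimmer Trimmomatic 0.39 and the quality tool FastQC 0.11.9, as well as R 4.1.0 with DESeq2 1.30.1. The authors deposited FPKM values for 53465 genes; no source at hand says how they were scaled or whether strand was used. Gene positions and exon lengths came from GENCODE vM21 (GRCm38). Reads were recovered from FPKM steps: 95.5% to 96.9% of values up to 50 reads lay within 0.05 of a whole number.

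Group means chose the members. limma 3.58.1 (trended prior) was fitted to log2(FPKM + 1) for 15159 genes with at least 1 FPKM in at least 3 libraries, in 8 groups, with Benjamini-Hochberg adjustment over all genes and a threshold of 0.05, two-sided, after a test on simulated data. Fold changes are on that scale and understate those of low genes. The members and all lists were chosen with earlier results of these data known. Named genes follow a rule (highest level, largest ratio, extreme KO to WT ratio, thresholds, shortfall in KO, listed genes); others are named as examples of a role, chosen after their values were seen. Same-numbered WT and KO libraries deviated together at day 3 (correlation 0.60 to 0.66) but not on days 0 (-0.11 to 0.12), 6 (-0.47 to 0.26) and 9 (-0.46 to 0.20). Nor did KO libraries across days (-0.22 to 0.39). The numbers are those of the sample titles. Paired by column number instead, WT and KO day 0 libraries correlated at 0.12, 0.26 and 0.05 for columns 1, 2 and 3. WT and KO libraries with different numbers correlated at -0.74 to 0.68 on day 6 and at -0.63 to 0.67 on day 9, so some of those pairs deviated together too. Motifs were counted in windows of 300 bases. Alternatives are given in the closing section. Some members are counted in the totals but not reported here by name.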

Additional observations from a re-analysis of the deposited data

How the results depend on the processing

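The 92 members higher at KO day 3 in all 3 contrasts became 45 with TPM, and 63 and 53 (from 100 and 104) against KO days 6 and 9. With TPM 58 members met the rule in KO instead of 88. With sums set equal without ribosomal-RNA-type genes, 98, 101 and 97 members were called against KO days 0, 6 and 9. In that setting 88 were called in all 3, and 98 met the rule in KO. Without any 1 library in turn the counts ran from 85 to 97 against day 0, 82 to 110 against day 6, 96 to 105 against day 9, 73 to 103 in all 3 and 79 to 101 for the rule in KO. Without the 3 libraries that stand apart (KO day 0 unnumbered, KO day 3 replicate 1, KO day 6 replicate 3), an alternative chosen after seeing the data, 99, 106 and 103 were called. A replicate block joined same-numbered libraries of a genotype across days and left out the unnumbered KO day 0 library. It used the numbers of the sample titles, which at KO day 0 differ from the column numbers. KO libraries so joined correlated at -0.22 to 0.39, which does not justify this block. With it the counts were 81, 102 and 104, and 76 in all 3, and 74 of the 92 kept all 3 calls. Between genotypes 0 members were called in each setting, except for 4 at day 6 without WT day 6 replicate 2, where the range without 1 library was 0 to 4. These settings include a block of same-numbered WT and KO libraries of a day, which the numbers justify at day 3 alone. The number of genes meeting the rule was 276 at 1.5-fold, 46 at 3-fold, 250 at a minimum of 2 FPKM, 69 at 10 FPKM, 76 in TPM (64 of them members) and 346 with sums set equal without ribosomal-RNA-type genes (116 members), and 112 to 149 without 1 WT library.

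Of 4227 values of 94 named members under alternatives, 3853 kept direction and side of the threshold, 296 fell short of it, 50 passed it and 28, in 8 members, changed sign; none of these 28 was past the threshold in the fit reported. With TPM the log2 fold change of Pfkfb3 was -0.08 against KO day 6 and -0.56 against day 9, and against day 9 Dusp4 was -0.02, Slc16a3 -0.56 and Arrdc3 -0.01, while Ier3 was 0.08 against day 0. Without the 3 libraries that stand apart the values against day 9 were -0.66 for Pfkfb3, -0.09 for Adm, -0.38 for Arrdc3 and -0.11 for Egln3. Ier3 was 1.06 against day 0 with the replicate block across days, which lacks the unnumbered KO day 0 library. Without 1 library in turn the values ran from -0.59 to 1.20 (day 6) and -0.66 to 0.51 (day 9) for Pfkfb3, -0.09 to 1.77 (day 9) for Adm, -0.16 to 1.32 (day 0) and -0.38 to 1.10 (day 9) for Arrdc3, -0.01 to 1.55 (day 6) and -0.11 to 1.44 (day 9) for Egln3, and -1.63 to 0.82 (day 0), -2.26 to 0.17 (day 6) and -1.80 to 0.63 (day 9) for Ier3. The causes were not tested. With 3 libraries a group, outlying libraries were not tested; the depth of low genes limits their values.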
